A study of Mus musculus with 16 samples.

Results

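The 9 heat shock chaperones described here are Hsp90ab1, Hsp90aa1, Hspa8, Hspa1a, Hspa1b, Dnajb1, Hsph1, Hspb1 and Hspd1, taken by gene symbol from the 37310 genes of the deposited count table. They are the main cytosolic chaperones of the heat shock response, apart from Hspd1, whose product is the mitochondrial HSP60. All 9 were in the table and passed the filter on low counts in every comparison. RNA was sequenced from F4/80+ adipose tissue macrophages (ATMs) of the epididymal fat of mice fed a high-fat diet (HFD) for 4 weeks (ST-HFD) or 12 weeks (LT-HFD), either WT or IRF5-KO, with 4 libraries in each of the 4 groups. The mice were C57BL/6 males that started the diet at 7 to 10 weeks of age. In IRF5-KO mice a floxed Irf5 was deleted by a Cre recombinase inserted at Lyz2 (LysM-Cre), which acts in the whole myeloid lineage and not in ATMs alone. All 16 libraries come from mice on HFD, and a lean group was not analysed here. The labels do not say that each library is a separate mouse, so p-values measure the spread between these libraries.

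Heat shock proteins keep other proteins folded. HSP70 proteins bind unfolded chains with the help of J-domain proteins and exchange factors, HSP90 proteins finish the folding of signalling proteins such as kinases and receptors, and small heat shock proteins hold unfolded chains in solution. Under heat or other protein damage the transcription factor HSF1 binds heat shock elements, inverted repeats of the letters GAA, and raises the inducible members such as Hspa1a, Hspa1b, Dnajb1 and Hsph1 many-fold above their resting level, while Hspa8 and Hsp90ab1 are made constantly. Cell isolation by warm enzyme digestion, used for these cells, is known to raise inducible heat shock genes and immediate early genes.

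Promoter sequences are shown first, because HSF1 acts through sites in promoters, and because Hspa1a and Hspa1b are near copies whose reads are hard to separate. RefSeq windows of GRCm38.p6, from 250 bases before to 50 bases after a transcript start, were found for 6 of the 9 members, with no entry for Hspa8, Hsp90aa1 and Hsp90ab1. The letters GAANNTTC or TTCNNGAA, 2 inverted GAA units, were searched on both strands, and overlapping matches were allowed. They were present for 5 of the 6 members, all but Dnajb1, and for 17.0% of all 27025 genes (15.1% of all 32851 windows). The longer run of 3 units, GAANNTTCNNGAA or TTCNNGAANNTTC, which contains the shorter one, was present for Hsph1 and Hspd1 and for 0.662% of all genes (0.603% of all windows). The 250 bases before the start follow for 5 members, 5′ to 3′ on the strand of the gene, with the matches in capitals.
Hspa1a (chr17:34972157-34972406, minus strand): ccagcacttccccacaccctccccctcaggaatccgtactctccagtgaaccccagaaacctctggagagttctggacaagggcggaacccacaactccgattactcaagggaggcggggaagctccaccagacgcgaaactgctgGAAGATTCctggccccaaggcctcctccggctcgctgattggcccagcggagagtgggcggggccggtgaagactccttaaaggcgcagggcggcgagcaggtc
Hspa1b (chr17:34959239-34959488, minus strand): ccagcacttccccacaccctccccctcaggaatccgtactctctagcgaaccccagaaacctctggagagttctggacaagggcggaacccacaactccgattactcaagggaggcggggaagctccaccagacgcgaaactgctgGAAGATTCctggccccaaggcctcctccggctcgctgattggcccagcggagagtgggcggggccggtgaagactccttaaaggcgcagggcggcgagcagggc
Hsph1 (chr5:149636337-149636586, minus strand): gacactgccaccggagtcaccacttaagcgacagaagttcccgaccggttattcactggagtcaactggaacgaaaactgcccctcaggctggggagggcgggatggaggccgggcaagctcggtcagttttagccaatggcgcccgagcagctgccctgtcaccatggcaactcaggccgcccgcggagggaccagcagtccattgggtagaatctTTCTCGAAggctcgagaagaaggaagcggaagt
Hspd1 (chr1:55087933-55088182, minus strand, the second of 2 starts): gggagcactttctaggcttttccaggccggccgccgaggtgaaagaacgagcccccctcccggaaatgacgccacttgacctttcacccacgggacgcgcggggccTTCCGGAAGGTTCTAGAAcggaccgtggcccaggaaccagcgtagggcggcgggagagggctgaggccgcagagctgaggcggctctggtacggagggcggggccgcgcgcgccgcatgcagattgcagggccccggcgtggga
Dnajb1 (chr8:83607925-83608174, plus strand, the first of 2 starts): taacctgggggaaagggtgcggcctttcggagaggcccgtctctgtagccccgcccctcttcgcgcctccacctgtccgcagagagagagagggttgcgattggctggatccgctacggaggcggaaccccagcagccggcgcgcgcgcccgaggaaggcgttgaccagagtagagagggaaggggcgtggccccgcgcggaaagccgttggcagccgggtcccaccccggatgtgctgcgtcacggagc
The sequences of Hspa1a and Hspa1b were identical at 247 of 250 positions, or 98.8%. Counted from 1 at the 5′ end, with the base of Hspa1a first, they differed by C44T, T47C and T249G, and both held GAAGATTC starting 104 bases before the transcript start. In Hspd1 the match was a run of 18 bases, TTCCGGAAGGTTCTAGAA, starting 144 bases before the start. In Hsph1 the printed match TTCTCGAA began 33 bases before the start, and its run of 3 units lay inside the first 50 transcribed bases, outside the printed sequence. The Hspb1 window held GAAGTTTC at 117 and GAACCTTC at 97 bases before the start. A match describes these letters and is not evidence of HSF1 binding in these cells.

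Positions follow the GENCODE vM21 annotation of GRCm38. Hspa1a (ENSMUSG00000091971, chr17:34969190-34972156, minus strand) and Hspa1b (ENSMUSG00000090877, chr17:34956436-34959238, minus strand) are neighbours on chromosome 17, which also carries Hsp90ab1 (ENSMUSG00000023944, chr17:45567775-45573271, minus strand). The other members are Hspa8 (ENSMUSG00000015656, chr9:40800984-40810087, plus strand), Dnajb1 (ENSMUSG00000005483, chr8:83608193-83612653, plus strand), Hsph1 (ENSMUSG00000029657, chr5:149614287-149636376, minus strand), Hspb1 (ENSMUSG00000004951, chr5:135887919-135889563, plus strand), Hsp90aa1 (ENSMUSG00000021270, chr12:110690605-110702728, minus strand) and Hspd1 (ENSMUSG00000025980, chr1:55077835-55088243, minus strand). Of all 100-base windows of the transcript, 56.5% in Hspa1a and 49.9% in Hspa1b occur also in another gene, chiefly in each other. The share was 47.5% for Hsp90aa1, 42.7% for Hspb1, 32.1% for Hspa8 and 26.9% for Hspd1, chiefly with pseudogenes, and 0 for Dnajb1, Hsph1 and Hsp90ab1. The split of reads between Hspa1a and Hspa1b is therefore uncertain. On the opposite strand Hspa1a overlaps Gm20481 and Hspd1 overlaps Hspe1, and whether strand was used in counting is not given in the sources used here.

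The libraries held 3279332 to 4958131 counts. A microRNA gene (mmu-mir-689-2) and the mitochondrial ribosomal RNAs mt-Rnr1 and mt-Rnr2 took between 18.6% and 24.1% of the counts on ST-HFD and between 26.1% and 34.5% of those on LT-HFD. The gene-level count of Irf5 did not fall in libraries that carry the label IRF5-KO. Its mean was 238 CPM (counts scaled to library size with TMM factors) in WT and 262 CPM in IRF5-KO on ST-HFD, and 193 and 229 CPM on LT-HFD, and a count over all exons does not separate deleted exons from the rest. Lyz2, the locus that carries the Cre, was at 3429 and 1757 CPM on ST-HFD and at 3673 and 1789 CPM on LT-HFD, with no overlap between genotypes. Irf5 was lower in the WT libraries labelled 12 weeks than in those labelled 4 weeks (log2 fold change -0.30, adjusted p = 0.0485 by the quasi-likelihood test of edgeR), and the log2 fold change of Ghitm was 0.47 (adjusted p = 0.0608). A plot of both genes in the study places the durations in the opposite order, so the direction of every duration difference here rests on the labels. Macrophage markers were abundant, with Cd68, Csf1r, Mrc1 and C1qa counted in all 16 libraries. Adgre1, which encodes F4/80, was not found under that symbol and was not analysed here.

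The HSP90 genes and Hspa8 stood far above the other members. Per kilobase of annotated exon, Hsp90ab1 averaged 589 ± 56.2 CPM per kb in WT and 584 ± 19.4 in IRF5-KO on ST-HFD (SD, n = 4), followed by Hspa8 at 403 ± 21.8 and 410 ± 25.6. On LT-HFD the lead was gone, with Hsp90ab1 at 353 ± 25.2 and 355 ± 18.7 and Hspa8 at 349 ± 16.1 and 360 ± 51.3, within their spread. Hsp90aa1 came next in every group, from 87.3 to 125 CPM per kb. Hspd1, at 21.3 to 28.7, and Dnajb1, at 19.2 to 23.4, lay near each other and within their spread. Hspa1a had means of 16.6 and 21.6 CPM per kb on ST-HFD and of 10.5 and 7.06 on LT-HFD, and on ST-HFD these did not differ from Dnajb1 beyond their spread. Hsph1 (4.97 to 8.74), Hspb1 (2.71 to 7.91) and Hspa1b (4.78 to 8.85) were low in every group. On ST-HFD every Hspb1 value per kb was below every Hsph1 value in both genotypes, and in IRF5-KO LT-HFD the mean of Hspa1a was below that of Hspb1. The plot of levels by group shows all 16 libraries for each member.

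**Figure D1:**
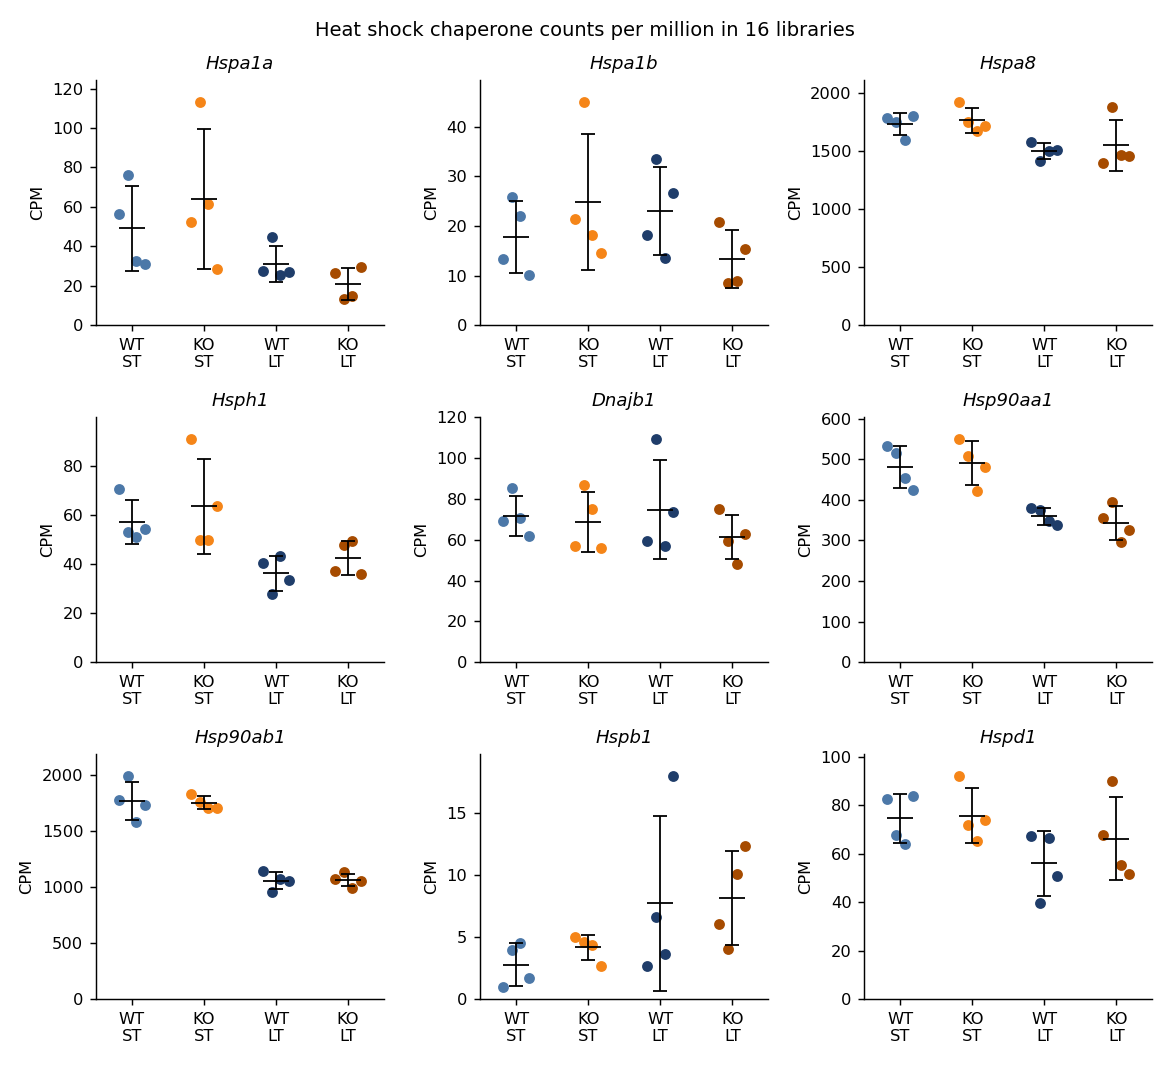
Level of each of the 9 chaperones in CPM (y axis, linear from 0, one panel per gene) in the 4 groups (x axis), with a point per library and the mean ± SD of 4 libraries. Hsp90ab1 and Hsp90aa1 do not overlap between ST-HFD and LT-HFD, while Hspa1a, Hspa1b and Hspb1 spread widely within groups.

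The comparison of 4 with 12 weeks of diet asks how chaperone expression in ATMs differed between short and prolonged caloric excess. All mice started the diet in the same age range, so those on LT-HFD were older when sampled. Duration and age cannot be told apart in these libraries. Both HSP90 genes and Hsph1 were lower on LT-HFD in WT and again in the libraries labelled IRF5-KO, and Hspa1a was lower on LT-HFD in IRF5-KO. In WT 3 of the 9 members passed the test as lower and none as higher, where 13.2% of the 11560 tested genes were lower and 12.1% higher. In IRF5-KO 4 of 9 were lower and none higher, where 17.2% of genes were lower and 15.6% higher. The median log2 fold change of the 9 members was -0.41 in WT and -0.52 in IRF5-KO, beside 0.02 and 0.04 over all genes. The summed level of the members was 3873 to 4560 CPM on ST-HFD and 3008 to 3319 CPM on LT-HFD in WT, and 4072 to 4618 and 2940 to 3626 CPM in IRF5-KO, most of it Hspa8 and Hsp90ab1.

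Hsp90ab1 encodes the constitutive cytosolic HSP90, the member with the highest level per kb on ST-HFD. In WT its level was 1772, 1986, 1578 and 1729 CPM in ST-HFD replicates 1 to 4 and 1144, 960, 1074 and 1056 CPM in LT-HFD replicates 1 to 4. In IRF5-KO it was 1829, 1761, 1705 and 1708 CPM on ST-HFD and 1069, 1133, 996 and 1058 CPM on LT-HFD. Every ST-HFD library was above every LT-HFD library in both genotypes. Over all genes, groups did not overlap in the lower direction for 13.8% of genes in WT and 15.2% in IRF5-KO. The log2 fold change was -0.74 (95% interval -0.94 to -0.53, 1.67-fold lower, adjusted p = 3.24e-05, edgeR's quasi-likelihood test) in WT and -0.72 (-0.92 to -0.51, 1.65-fold lower, adjusted p = 2.85e-05) in IRF5-KO.

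Hsp90aa1, the stress-inducible HSP90, stood at 532, 515, 453 and 423 CPM on ST-HFD and 379, 374, 348 and 337 CPM on LT-HFD in WT. In IRF5-KO the values were 549, 509, 422 and 482 CPM on ST-HFD and 355, 394, 297 and 327 CPM on LT-HFD. Again no LT-HFD library reached the lowest ST-HFD library of its genotype. In log2 terms the difference was -0.42 (-0.65 to -0.18, adjusted p = 0.0104, edgeR) in WT and -0.52 (-0.75 to -0.28, adjusted p = 0.00196) in IRF5-KO, smaller than for Hsp90ab1. Both HSP90 genes passed the test under all 23 alternatives in both genotypes, with adjusted p of at most 0.0439.

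Hspa8 encodes HSC70, the constitutive HSP70. It stood at 1782, 1746, 1597 and 1805 CPM on ST-HFD and 1581, 1412, 1501 and 1506 CPM on LT-HFD in WT, and at 1921, 1749, 1670 and 1713 CPM and 1399, 1876, 1461 and 1457 CPM in IRF5-KO. The groups did not overlap in WT, while in IRF5-KO LT-HFD replicate 2 lay among the ST-HFD libraries. Its log2 fold change was -0.21 (-0.43 to 0.02, adjusted p = 0.171, edgeR) in WT and -0.19 (-0.41 to 0.04, adjusted p = 0.19) in IRF5-KO, so Hspa8 did not pass the test in either. Without IRF5-KO LT-HFD replicate 2 the value in IRF5-KO was -0.30 and passed (adjusted p = 0.0312).

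Hspa1a and Hspa1b encode the same inducible HSP70 and varied far more between libraries. In WT, Hspa1a was at 56.6, 76.4, 32.6 and 30.9 CPM on ST-HFD and 27.4, 44.7, 25.6 and 26.9 CPM on LT-HFD. In IRF5-KO it was at 52.5, 113, 61.7 and 28.6 CPM on ST-HFD and 26.5, 13.3, 14.6 and 29.3 CPM on LT-HFD. Replicate 2 was the highest ST-HFD library of both genotypes, and in IRF5-KO the durations met only at ST-HFD replicate 4 and LT-HFD replicate 4. The log2 fold change in IRF5-KO was -1.61 (SE 0.39, -2.43 to -0.80, 3.06-fold lower, adjusted p = 0.00400, edgeR). It passed under all 22 alternatives and was smallest without IRF5-KO ST-HFD replicate 2, at -1.19 (adjusted p = 0.0197). In WT the value was -0.67 (-1.46 to 0.13, adjusted p = 0.218), and -0.38 without WT ST-HFD replicate 2 (adjusted p = 0.538). The difference of the 2 values was -0.95 (-2.08 to 0.18, adjusted p = 0.969), so the duration effect was not shown to differ between genotypes.

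Hspa1b read 13.3, 25.8, 22.0 and 10.2 CPM on ST-HFD and 18.2, 33.5, 13.6 and 26.6 CPM on LT-HFD in WT, and 21.5, 45.0, 18.3 and 14.5 CPM and 20.7, 8.40, 8.99 and 15.4 CPM in IRF5-KO. Groups overlapped in both genotypes. The log2 fold change was 0.37 (-0.44 to 1.19, adjusted p = 0.531, edgeR) in WT and -0.88 (-1.72 to -0.05, adjusted p = 0.0967) in IRF5-KO, and the latter passed without IRF5-KO LT-HFD replicate 1 (adjusted p = 0.0484) and with no filter on low counts (0.0424). Without IRF5-KO ST-HFD replicate 2 the value was -0.44 (adjusted p = 0.411). With the reads of both genes summed, which avoids their uncertain split, the value was -1.37 (adjusted p = 0.00887) in IRF5-KO and -0.31 (adjusted p = 0.581) in WT. The share of the pair counted on Hspa1a in WT was 72.7% ± 9.09 (SD, n = 4) after ST-HFD and 58.2% ± 6.26 after LT-HFD (exact permutation test, two-sided, p = 0.0857), and 71.5% ± 4.46 and 61.2% ± 3.86 in IRF5-KO (p = 0.0286, the smallest value that 4 against 4 allows). In IRF5-KO every ST-HFD share, from 66.3%, was above every LT-HFD share, up to 65.5%.

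Dnajb1 encodes HSP40, the J-domain partner that delivers unfolded chains to inducible HSP70. Its level was 69.5, 85.2, 70.6 and 61.8 CPM on ST-HFD and 59.4, 109, 57.0 and 73.7 CPM on LT-HFD in WT, and 56.9, 86.7, 75.1 and 56.1 CPM and 74.9, 59.4, 48.3 and 63.0 CPM in IRF5-KO. WT LT-HFD replicate 2 was the highest of all 16 libraries. Between durations the log2 fold change was 0.06 (-0.36 to 0.47, adjusted p = 0.866, edgeR) in WT and -0.16 (-0.58 to 0.26, adjusted p = 0.570) in IRF5-KO.

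Hsph1 encodes HSP110, which exchanges the nucleotide of HSP70 and works with it on aggregated protein. It stood at 70.4, 53.2, 50.9 and 54.1 CPM on ST-HFD and 40.4, 27.6, 43.1 and 33.4 CPM on LT-HFD in WT. In IRF5-KO the values were 90.8, 49.6, 49.9 and 63.5 CPM on ST-HFD and 37.0, 47.7, 49.4 and 36.1 CPM on LT-HFD. The groups did not overlap in either genotype, although in IRF5-KO ST-HFD replicate 2 (49.6 CPM) and LT-HFD replicate 3 (49.4 CPM) nearly met. The log2 fold change was -0.66 (-1.07 to -0.25, adjusted p = 0.0193, edgeR) in WT and -0.58 (-0.98 to -0.17, adjusted p = 0.0292) in IRF5-KO. The WT call was lost without WT LT-HFD replicate 2 (adjusted p = 0.0627), WT LT-HFD replicate 4 (0.0568) or WT ST-HFD replicate 1 (0.0754). The IRF5-KO call was lost without IRF5-KO LT-HFD replicate 1 (adjusted p = 0.0817), LT-HFD replicate 4 (0.0778), ST-HFD replicate 1 (0.128) or ST-HFD replicate 4 (0.0506), and with the 8 IRF5-KO libraries fitted alone (0.0508).

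Hspb1, which encodes the small heat shock protein HSP27 (HSP25 in mice), rested on 5 to 66 counts per library. It was at 0.976, 3.95, 4.55 and 1.70 CPM on ST-HFD and 2.71, 6.64, 3.62 and 17.9 CPM on LT-HFD in WT, and at 5.01, 4.63, 4.39 and 2.71 CPM and 6.08, 4.07, 10.1 and 12.4 CPM in IRF5-KO. WT LT-HFD replicate 4 was the highest library, and durations overlapped in both genotypes. It was the one member with a positive value in both genotypes, a log2 fold change of 1.5 in WT (0.31 to 2.7, adjusted p = 0.0604, edgeR) and 0.94 in IRF5-KO (-0.19 to 2.08, adjusted p = 0.194). Without WT LT-HFD replicate 4 the WT value was 0.64 (adjusted p = 0.444), whereas without the filter on low counts (0.0317), with DESeq2 (0.0460), or without WT LT-HFD replicate 1 (0.0257), WT LT-HFD replicate 3 (0.0367) or WT ST-HFD replicate 3 (0.0482) it passed.

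Hspd1 encodes the mitochondrial chaperonin HSP60. Its level was 82.5, 68.0, 64.3 and 83.9 CPM on ST-HFD and 67.6, 39.8, 66.8 and 50.8 CPM on LT-HFD in WT, and 92.0, 72.0, 65.4 and 73.9 CPM and 68.0, 90.0, 55.3 and 51.9 CPM in IRF5-KO. The groups overlapped in both genotypes. Its log2 fold change was -0.41 (-0.80 to -0.02, adjusted p = 0.123, edgeR) in WT and -0.19 (-0.58 to 0.20, adjusted p = 0.450) in IRF5-KO. The plot of fold changes sets these values side by side.

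**Figure D2:**
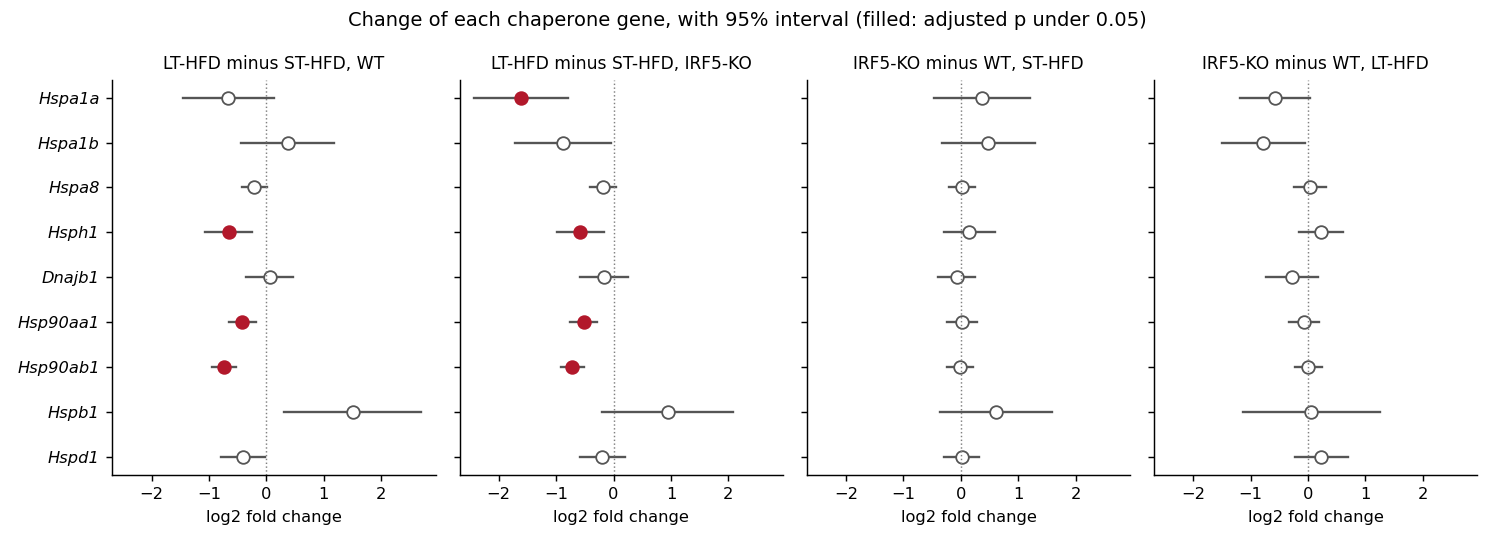
Log2 fold change (x axis) of each chaperone (y axis) with its 95% interval in 4 comparisons, IRF5-KO against WT on ST-HFD and LT-HFD and LT-HFD against ST-HFD in WT and IRF5-KO, with filled points for an adjusted p under 0.05. Filled points appear only for duration, for Hsp90ab1, Hsp90aa1 and Hsph1 in both genotypes and for Hspa1a in IRF5-KO.

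The comparison of genotypes at each duration asks whether loss of IRF5 in myeloid cells changes ATM expression. No member passed the test on ST-HFD, where edgeR's quasi-likelihood test called 0.00913% of 10958 genes, or on LT-HFD, where it called 0.0182% of 10987 genes. DESeq2's Wald test also called 0 members in each. At an unadjusted p under 0.05 there were 0 members on ST-HFD, beside 1.84% of all genes, and 1 on LT-HFD, beside 5.72%. All 9 members overlapped between genotypes at both durations, where 1.47% (ST-HFD) and 3.01% (LT-HFD) of genes did not. On ST-HFD the log2 fold changes of the libraries labelled IRF5-KO ran from -0.07 (Dnajb1) to 0.62 (Hspb1). On LT-HFD the widest differences were in the inducible HSP70 pair, at -0.78 for Hspa1b (-1.51 to -0.05, unadjusted p = 0.0384, adjusted p = 0.853, edgeR) and -0.58 for Hspa1a (-1.18 to 0.03, adjusted p = 0.853). Without WT LT-HFD replicate 2 the value of Hspa1a was -0.36. IRF5-KO replicates 2 and 3 held the 2 lowest values of both genes on LT-HFD.

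The precision differed widely between members. For Hsp90ab1 the 95% interval of the genotype difference was -0.24 to 0.21 (ST-HFD) and -0.24 to 0.24 (LT-HFD), for Hspa8 -0.21 to 0.24 and -0.24 to 0.32, and for Hsp90aa1 -0.23 to 0.28 and -0.33 to 0.19. Intervals were wider for Dnajb1 (-0.40 to 0.26 and -0.74 to 0.17), Hsph1 (-0.29 to 0.59 and -0.15 to 0.61) and Hspd1 (-0.29 to 0.32 and -0.23 to 0.69). They reached past a log2 fold change of 1 for Hspa1a (-0.47 to 1.21), Hspa1b (-0.33 to 1.29) and Hspb1 (-0.36 to 1.6) on ST-HFD, and on LT-HFD for Hspb1 (-1.13 to 1.25) and, as given above, for Hspa1a and Hspa1b. The test of whether the genotype difference itself changed with duration called 0 of 11560 genes in edgeR and 0 in DESeq2, with 454 at an unadjusted p under 0.05 in edgeR (3.93%). Hspa1b alone among the members had an unadjusted p under 0.05, at -1.26 (-2.42 to -0.09, edgeR, unadjusted p = 0.0362, adjusted p = 0.969).

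Within groups, the members fell apart into steady and variable genes. The biological coefficient of variation between libraries of one group was 36.0% for Hspa1a, 36.9% for Hspa1b and 49.6% for Hspb1, above 97.6%, 95.6% and 94.8% of the 500 tested genes nearest in expression. It was 18.9% for Hsph1, 19.6% for Dnajb1 and 18.3% for Hspd1, at percentiles 84.8, 83.2 and 80.4. For Hsp90aa1 (12.4%), Hspa8 (11.8%) and Hsp90ab1 (10.9%) the percentiles were 40.4, 25.2 and 14.2. The highest Hspa1a library of IRF5-KO ST-HFD was 3.96-fold above the lowest, within a group of the same genotype and diet.

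Group-centred levels (log2 CPM minus the group mean) were compared over the 16 libraries for all 36 pairs of members, with 100000 permutations within groups and Benjamini-Hochberg adjustment. The permutations treat all libraries as independent and leave out the pairing of same-numbered WT and IRF5-KO libraries on ST-HFD. Of the 36 Pearson correlations, 7 passed, 6 of them positive. Hspa1a, Hspa1b and Dnajb1 formed a first set. Hspa1b and Dnajb1 varied together (r = 0.810, adjusted permutation p = 0.00882, rho = 0.803, adjusted permutation p = 0.00792), also within ST-HFD (r = 0.794) and LT-HFD (r = 0.857) and with the 2 libraries farthest from the median left out (r = 0.749). Hspa1a varied with Dnajb1 (r = 0.755, adjusted permutation p = 0.00882, rho = 0.697, adjusted permutation p = 0.0238, r = 0.684 without the 2 farthest). Hspa1a and Hspa1b, whose reads are shared in part, varied together as well (r = 0.777, adjusted permutation p = 0.0335, rho = 0.776, adjusted permutation p = 0.0256, r = 0.656 without the 2 farthest). Within durations r was 0.864 and 0.743 for Hspa1a with Dnajb1 and 0.743 and 0.855 for the pair of HSP70 genes.

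The other pairs involved Hspa8, Hsp90ab1, Hspd1 and Hsph1. Hspa8 varied with Hspd1 (r = 0.782, adjusted permutation p = 0.0218, rho = 0.765, adjusted permutation p = 0.0238, r = 0.853 without the 2 farthest) and with Hsp90ab1 (r = 0.617, adjusted permutation p = 0.0335, rho = 0.721, adjusted permutation p = 0.0256, r = 0.711 without the 2 farthest). Hsph1, an inducible gene, varied with Hspd1 (r = 0.696, adjusted permutation p = 0.0335, rho = 0.647, adjusted permutation p = 0.0489, r = 0.665 without the 2 farthest) and against Dnajb1 (r = -0.763, adjusted permutation p = 0.0218, rho = -0.859, adjusted permutation p = 0.00792, r = -0.675 without the 2 farthest). Within durations the correlation of Dnajb1 with Hsph1 was -0.651 (ST-HFD) and -0.915 (LT-HFD). Values within durations were 0.918 and 0.738 for Hspa8 with Hspd1, 0.612 and 0.674 for Hspa8 with Hsp90ab1, and 0.817 and 0.702 for Hsph1 with Hspd1. The 16 values of a pair share their libraries and their scaling. The map of deviations shows the libraries that carry these relations, such as WT LT-HFD replicate 2 with high Dnajb1 and low Hsph1 and Hspd1. Of all 16 libraries this one had the fewest counts (3279332) and the lowest TMM factor (0.875). It also had the highest share of mmu-mir-689-2, mt-Rnr1 and mt-Rnr2 (34.5%). The part of these traits in the relations was not tested.

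**Figure D3:**
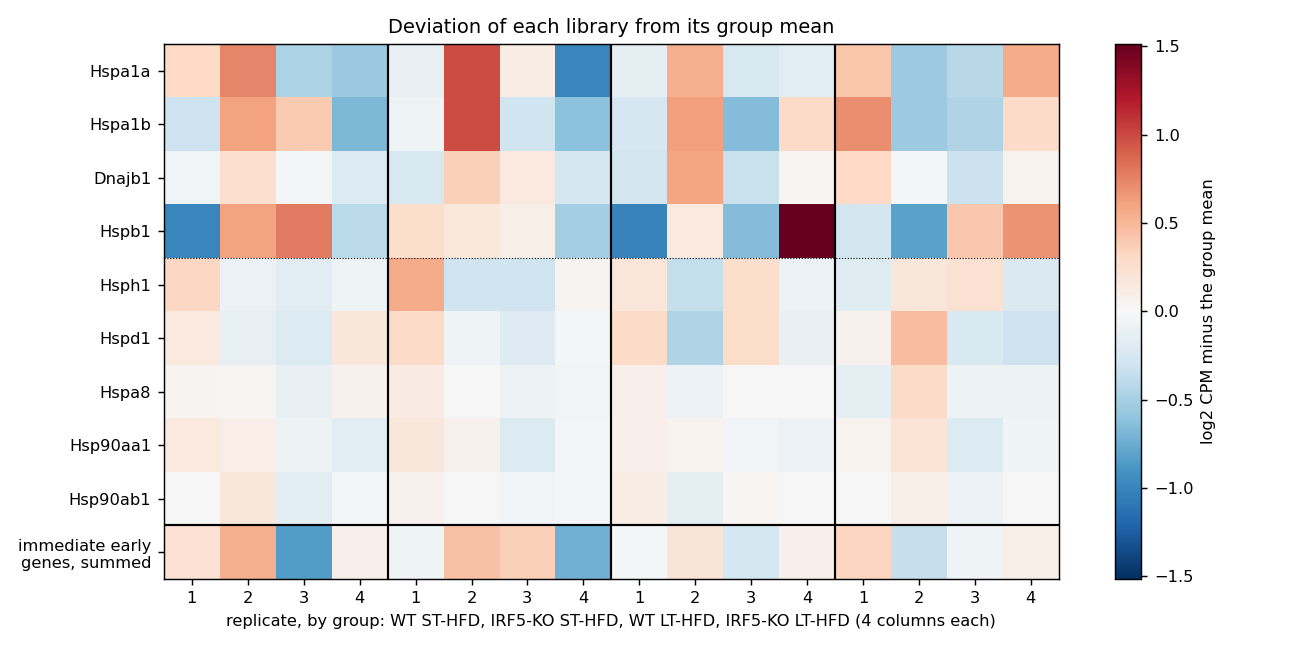
Deviation of each chaperone from its group mean (colour, log2 CPM) in the 16 libraries (columns, by group and replicate), with the summed immediate early genes in the last row. Hspa1a, Hspa1b and Dnajb1 deviate together, highest in IRF5-KO ST-HFD replicate 2 for both HSP70 genes, while Hsph1 and Dnajb1 tend to opposite signs.

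A list of 20 immediate early genes (Fos, Jun and Egr1 among them), which cells switch on within minutes of handling or stimulation, varied with Hspa1a. Their summed level was 7487 to 19826 CPM in WT and 9527 to 21447 CPM in IRF5-KO on ST-HFD, and 12087 to 16614 and 8901 to 14204 CPM on LT-HFD. Over the group-centred libraries the correlation with Hspa1a was r = 0.807 (adjusted permutation p = 0.0254, rho = 0.835, adjusted permutation p = 0.0079), 0.825 within ST-HFD, 0.809 within LT-HFD and 0.746 without the 2 farthest libraries, in a family of 20 relations chosen after the data were seen. Pearson's r did not pass for Dnajb1 (0.555, adjusted permutation p = 0.0776, although its rho of 0.700 did, adjusted permutation p = 0.0235) or Hspa1b (0.449, adjusted permutation p = 0.360). In IRF5-KO 6 of the 20 genes fell with duration (Fosb -1.20, Jund -1.01, Egr1 -1.25, Zfp36 -0.95, Klf4 -1.83 and Ppp1r15a -1.35 in log2 fold change), with a list median of -0.54, and none rose. In WT Klf4 fell (-1.30) and Ier3 (0.90), Btg2 (0.68) and Socs3 (1.06) rose, with a median of -0.08. These WT counts were near or under the shares over all genes (13.2% lower, 12.1% higher). The shares over all genes in IRF5-KO were 17.2% lower and 15.6% higher. In IRF5-KO the calls of Fosb (adjusted p up to 0.0879, without ST-HFD replicate 2), Egr1 (0.0631, without ST-HFD replicate 3) and Ppp1r15a (0.0527, without ST-HFD replicate 3) were lost without single libraries. In WT this held for Ier3 (up to 0.172, without LT-HFD replicate 2) and Socs3 (0.160, without LT-HFD replicate 4). The part of these genes in the lower Hspa1a of IRF5-KO LT-HFD was not tested.

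Other parts of the folding machinery were described from lists of genes, by the same test of duration, to be read beside the shares of all tested genes that were lower (13.2% in WT, 17.2% in IRF5-KO) and higher (12.1% and 15.6%). Among 13 HSP70 exchange factors and adaptors, 4 fell and none rose in each genotype, with medians of -0.05 in WT and -0.12 in IRF5-KO. The genes were the same in both genotypes. Stip1, which links HSP70 to HSP90, averaged 72.0 CPM on ST-HFD and 35.7 CPM on LT-HFD in WT and 68.1 and 38.9 CPM in IRF5-KO (log2 fold change -1.01 and -0.81, adjusted p = 7.87e-07 and 5.03e-06, edgeR). Bag3, an exchange factor that directs clients to autophagy, fell by 0.77 and 0.84 on the log2 scale, Bag6 by 0.56 and 0.54 and Tomm34 by 0.72 and 0.58. These 8 calls held under all 23 alternatives.

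Of 15 HSP90 cochaperones, 4 fell and 1 rose in WT (median -0.14) and 2 fell and 1 rose in IRF5-KO (median -0.11), both IRF5-KO counts being under the shares over all genes. Cdc37, which brings kinases to HSP90, fell by 0.41 and 0.39 and Nudc by 0.71 in both genotypes, and in WT Ppp5c fell by 0.61 and Unc45a by 0.47. Ptges3, the p23 cochaperone, rose in WT (0.29) and Sugt1 rose in IRF5-KO (0.49). The WT calls of Unc45a (adjusted p up to 0.108, without LT-HFD replicate 3) and Ptges3 (0.0824, without LT-HFD replicate 4) were lost without single libraries, and that of Ptges3 also with no filter on low counts (0.160). Among 17 J-domain cochaperones other than Dnajb1, the same 5 fell in each genotype (medians -0.05 and -0.11). Dnajb12 fell by 0.61 and 0.48, Dnajc2 by 0.98 and 1.05, Dnajc7 by 0.43 and 0.60, Dnajc13 by 0.73 and 0.85 and Dnajc21 by 0.86 and 0.66. Dnajb4 rose in WT (0.56) and Dnaja4 in IRF5-KO (1.17). Calls were lost without single libraries for Dnajb4 (adjusted p up to 0.0613, without WT ST-HFD replicate 3), Dnaja4 (0.159, without IRF5-KO LT-HFD replicate 1) and, in IRF5-KO, Dnajc21 (0.0616, without ST-HFD replicate 4).

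The other HSP70 and HSP110 genes split. Of 7 tested, 2 rose and 2 fell in WT (median 0.25) and 1 rose and 1 fell in IRF5-KO (median -0.24). Hspa13 rose (0.62 and 0.82), Hspa2 rose in WT (0.86), Hspa4l fell (-0.59 and -0.62) and Hspa4 fell in WT (-0.35). Of these calls, that of Hspa13 in IRF5-KO held whichever library was left out. In WT those of Hspa13 (adjusted p up to 0.0631, without LT-HFD replicate 4), Hspa2 (0.0737, without LT-HFD replicate 2), Hspa4l (0.0906, without ST-HFD replicate 3) and Hspa4 (0.160, without LT-HFD replicate 4) were lost, as was that of Hspa4l in IRF5-KO (0.0511, without LT-HFD replicate 3). Of 5 other small heat shock genes, 2 rose in each genotype and none fell (medians 0.68 and 0.24). Hspb8, the partner of Bag3 in clearing damaged protein, went from 2.73 to 25.2 CPM in WT and from 3.23 to 29.1 CPM in IRF5-KO (log2 fold change 3.22 and 3.15). Without single libraries its WT value ranged from 2.17 to 3.53, and the call held. Cryab rose by 2.46 and 1.68, the latter call being lost without IRF5-KO LT-HFD replicate 1 (adjusted p = 0.0662). Summed over the list, WT LT-HFD replicate 4 stood at 91.1 CPM and the other 3 libraries of its group at 28.0 to 36.0 CPM, and the same library held the highest sum of fibroblast markers (9506 CPM, 3248 to 3719 CPM in the other 3). The part of fibroblasts in this rise was not tested.

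In the cytosolic chaperonin and prefoldin list of 13 genes, none fell. Pfdn5 rose in both genotypes (0.67 and 0.61) and Vbp1 in IRF5-KO (0.47, adjusted p up to 0.122, without ST-HFD replicate 3), with medians of 0.10 and 0.24. Of 14 mitochondrial chaperones and proteases besides Hspd1, 1 rose in WT (Yme1l1, 0.31, adjusted p = 0.0890 without ST-HFD replicate 3 and 0.160 with no filter on low counts) and 4 rose and 1 fell in IRF5-KO (medians 0.12 and 0.16). In IRF5-KO these were Yme1l1 (0.52), Hspe1, the HSP10 lid of HSP60 (0.43), Hscb (1.01), Htra2 (0.77) and Lonp1 (-0.27). The calls of Hspe1 (adjusted p up to 0.115, without LT-HFD replicate 2), Hscb (0.0533, without LT-HFD replicate 2) and Lonp1 (0.144, without LT-HFD replicate 3) were lost without single libraries, and that of Lonp1 reached 0.153 with no filter on low counts. Hspe1 and Hspd1 share a start region on opposite strands, and the log2 fold change of Hspd1 had the opposite sign (-0.19).

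Chaperones of the endoplasmic reticulum, which answer mainly to the unfolded protein response, held the largest share of lower genes among these lists. Of 14, 9 fell in WT and 7 in IRF5-KO, with none higher and medians of -0.34 and -0.33. Hsp90b1, the HSP90 of that compartment, went from 702 to 395 CPM in WT and from 689 to 361 CPM in IRF5-KO (-0.83 and -0.93). Hyou1 (-0.62 and -0.51), Dnajc3 (-0.37 and -0.53), Pdia3 (-0.35 and -0.36), Pdia4 (-0.32 and -0.49) and Pdia6 (-0.38 and -0.36) fell in both genotypes. Creld2 (-0.58), Dnajb11 (-0.42) and Calr (-0.33) fell in WT and Hspa5, the HSP70 of that compartment, fell in IRF5-KO (-0.35). The WT calls of Calr (adjusted p up to 0.103, without ST-HFD replicate 1), Pdia4 (0.0920, without ST-HFD replicate 2), Dnajb11 (0.0694, without ST-HFD replicate 1) and Dnajc3 (0.0611, without LT-HFD replicate 3) were lost without single libraries.

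Hsf1 itself, among 4 tested heat shock factors and regulators (medians -0.27 and -0.39), averaged 18.5 CPM on ST-HFD and 12.2 CPM on LT-HFD in WT and 19.4 and 10.2 CPM in IRF5-KO. It fell by 0.61 on the log2 scale in WT (adjusted p = 0.0190, edgeR, up to 0.0690 without WT LT-HFD replicate 4) and by 0.92 in IRF5-KO (adjusted p = 9.95e-04). Hsbp1 rose in IRF5-KO (0.27, adjusted p = 0.118 without ST-HFD replicate 3 and 0.187 with no filter on low counts). In a list of 24 heat-inducible genes bound by HSF1, which shares genes with the lists above, 5 rose and 6 fell in WT and 4 rose and 4 fell in IRF5-KO (medians -0.07 and -0.12). Serpinh1, the collagen chaperone of fibroblasts, rose by 2.79 and 2.78, and Usp1 fell by 0.50 in WT (adjusted p up to 0.148, without ST-HFD replicate 4). No gene of these lists passed the test of genotype or of its interaction with duration. The plot of lists shows these values.

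**Figure D4:**
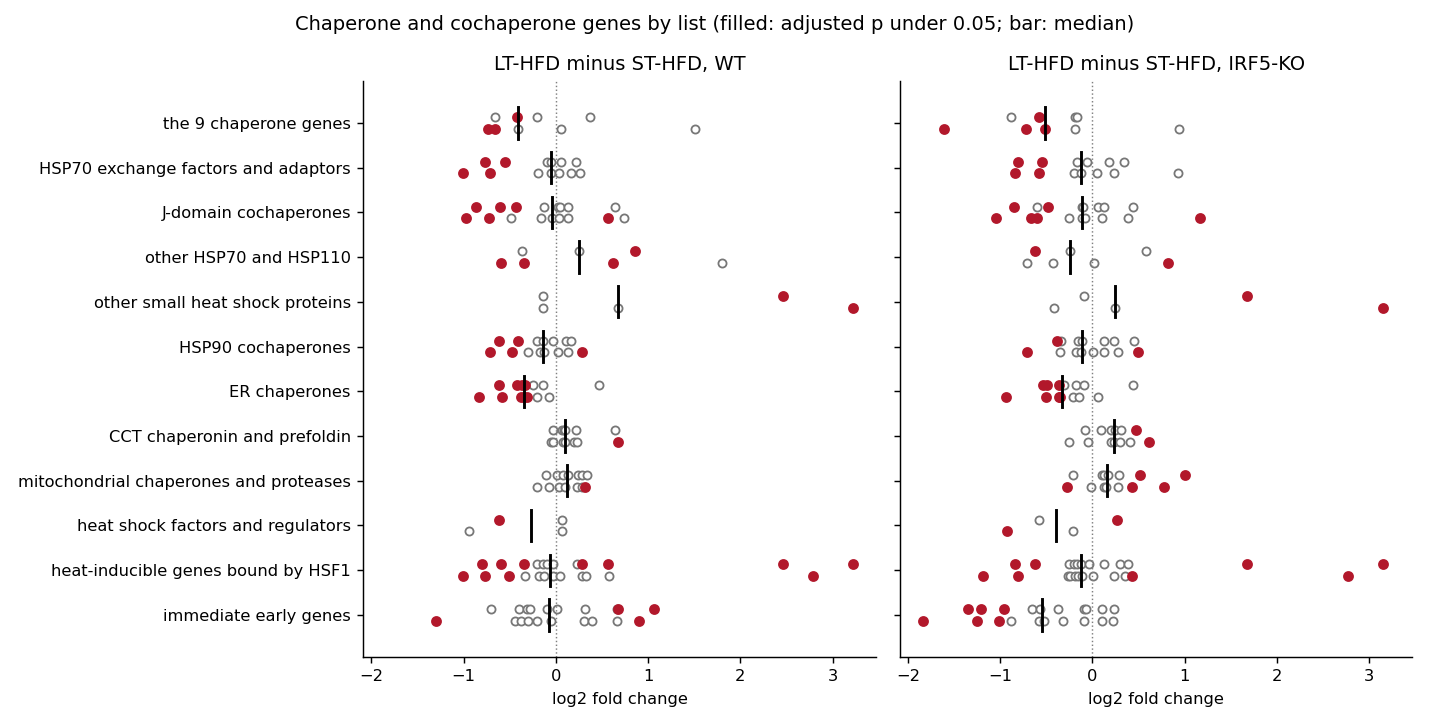
Log2 fold change of LT-HFD against ST-HFD (x axis) for the genes of each chaperone list and the immediate early genes (y axis) in WT and IRF5-KO, with filled points for an adjusted p under 0.05 and a bar at the list median. The endoplasmic reticulum list has the lowest median in WT among the chaperone lists other than the 9 members (-0.34) and the small heat shock list holds the highest values.

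Markers of other cells moved with duration. Of 10 fibroblast and preadipocyte markers, 10 rose in WT and 8 in IRF5-KO (median log2 fold change 2.40 in each). Their summed level was 1041 to 1185 CPM in WT and 704 to 1704 CPM in IRF5-KO on ST-HFD, and 3248 to 9506 and 3341 to 7735 CPM on LT-HFD. The macrophage markers summed to 11383 to 12270 CPM and 10696 to 11828 CPM on ST-HFD and 9122 to 11299 and 8579 to 8987 CPM on LT-HFD, and of 11 tested, 2 fell in WT, and 5 fell and 1 rose in IRF5-KO, the WT count lying near the 13.2% of all genes. In IRF5-KO the calls of Fcgr1 (adjusted p up to 0.178, without LT-HFD replicate 2), C1qb (0.110, without LT-HFD replicate 2) and Cd14 (0.0652, without LT-HFD replicate 4) were lost without single libraries, as was that of the fibroblast marker Dpp4 in WT (0.0642, without LT-HFD replicate 4). Over all genes, 12.1% were higher in WT, and 17.2% were lower and 15.6% higher in IRF5-KO. In bulk RNA fewer cells of a type and less RNA per cell cannot be told apart. WT LT-HFD replicate 4 held both the highest fibroblast sum and the highest Hspb1. Over group-centred libraries Hspb1 and the fibroblast sum had r = 0.671 (adjusted permutation p = 0.0776, rho = 0.615, adjusted permutation p = 0.0647), 0.431 within ST-HFD, 0.777 within LT-HFD and 0.483 without the 2 farthest libraries, so the relation did not pass and leaned on those libraries. The part of these cells in the duration differences of the chaperones was not tested.

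The fibroblast sum passed the macrophage sum in WT LT-HFD replicate 4 (9506 against 9122 CPM), while the other cell types were far below both. Their summed marker levels over the 16 libraries were 19.5 to 114 CPM for endothelial, 4.90 to 29.7 for mesothelial, 4.92 to 63.9 for mural, 27.6 to 112 for T and NK, 5.27 to 35.6 for B, 23.0 to 187 for neutrophil, 17.1 to 129 for dendritic and 0 to 3.0 CPM for erythroid cells, with Ly6g at 0 counts in every library. With duration 1 mesothelial marker (Wt1), 1 mural marker (Des) and 1 of the 2 tested B cell markers (Ebf1, which preadipocytes also express) rose and 1 mural marker (Myh11) fell in each genotype. The call of Myh11 was lost without single libraries, in WT (adjusted p up to 0.175, without ST-HFD replicate 2) and in IRF5-KO (0.0626, without ST-HFD replicate 2). In IRF5-KO 1 neutrophil and 1 dendritic cell marker (Cd209a, adjusted p up to 0.0563, without LT-HFD replicate 3) fell, and none of the tested endothelial (6 of 9) and T and NK cell markers (2 of 8) passed the test in either. Adipocyte markers summed to 93.8 to 377 CPM, with 1 higher and 1 lower (Cidec, adjusted p up to 0.138, without LT-HFD replicate 2) in IRF5-KO.

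**Figure D5:**
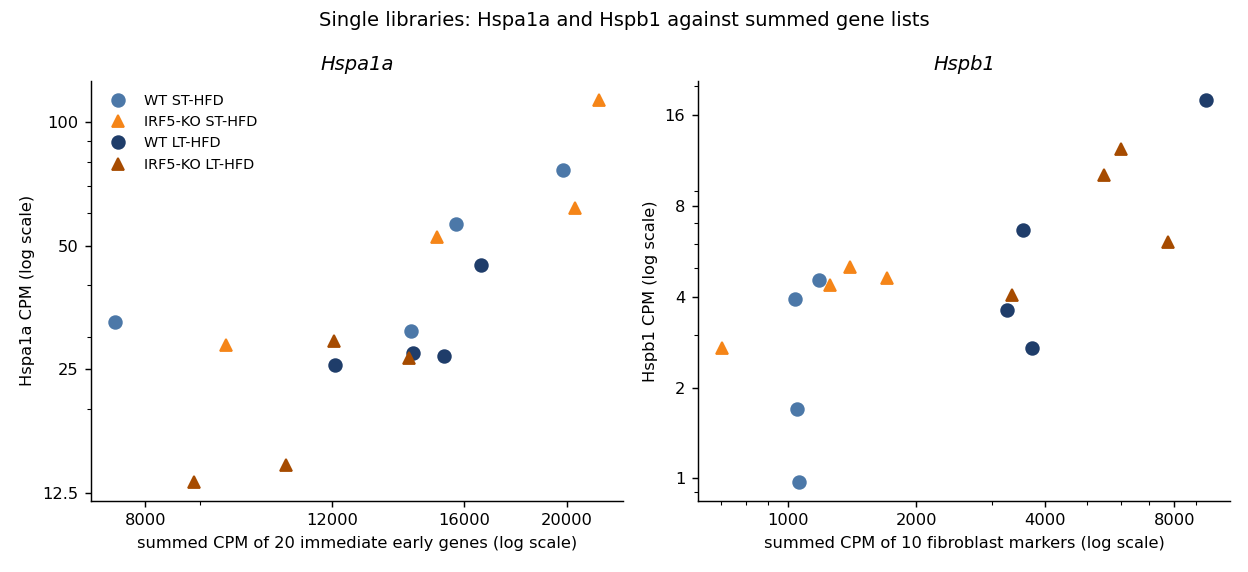
Left, Hspa1a against the summed immediate early genes, and right, Hspb1 against the summed fibroblast and preadipocyte markers, both in CPM on log axes with a point per library coloured by group. Hspa1a is highest where the immediate early sum is highest, and the highest Hspb1 value (17.9 CPM) is the library with the highest fibroblast sum (9506 CPM).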

How the data were processed

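Epididymal fat was digested with collagenase, F4/80+ cells were taken from the stromal fraction, and stranded total RNA libraries were depleted of ribosomal sequence. The authors aligned reads with STAR to mm10, which shares its coordinates with GRCm38, and deposited raw gene counts without normalization. Processing notes in the labels name STAR 2.7.3a, fastp 0.19.11 and the builds mm10 and mm9. The annotation and strand setting of the counting are not given in the sources used here.

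Tests on the counts were run with edgeR 4.0.16 under R 4.3.3. Genes were filtered by filterByExpr, scaled by TMM and tested by the quasi-likelihood test with Benjamini-Hochberg adjustment at 0.05. Genotypes were compared within each duration (8 libraries), as the study did, and durations and the interaction in 1 fit of all 16 libraries. Fold changes are log2, LT-HFD over ST-HFD or IRF5-KO over WT. CPM values use the deposited counts with TMM factors, and CPM per kb divides by the union of annotated exons. Totals of 3279332 to 4958131 counts per library limit the precision for members with few counts, such as Hspb1. The edgeR test and the permutation test of correlations were tried on simulated data, and the other tests were not. Libraries of the same group were not duplicates of each other, and libraries of different groups were not checked for this.

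Alternatives were DESeq2 1.42.0, RLE size factors, no filter on low counts, leaving out the 3 dominant features, Hspa1a and Hspa1b summed, other sets of libraries, a replicate block and leaving out each library in turn. Summing does not apply to Hspa1a and Hspa1b themselves, which leaves 22 alternatives for their duration effects, and there were 23 for the other members. For duration these include leaving out libraries of the other genotype, which enter only through the shared scaling and spread. Summing Hspa1a and Hspa1b leaves the counts of the other members unchanged. Such alternatives could hardly change a call. Same-numbered WT and IRF5-KO libraries correlated in their deviations from the group means on ST-HFD (r = 0.369, 0.483, 0.179 and 0.298 over 9765 genes whose mean count reached 20), so replicate numbers count as pairs on ST-HFD, although differently numbered libraries reached 0.467. On LT-HFD the values were -0.0696, -0.151, 0.0585 and 0.233, and the numbers were not taken as pairs.

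The members and the gene lists were chosen with earlier results of these data known, so no pattern here is independent support for them. Named genes were all members, Irf5, Lyz2 and Hsf1, and the list genes with an adjusted p under 0.05. Ghitm was added after its values were seen, as were the correlations with summed lists and the test of the share of Hspa1a. Other genes of the table were tested but are not described, and reads per exon were not analysed here.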

Additional observations from a re-analysis of the deposited data

Results flagged for a closer look

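Of 56 groups of 4 libraries checked for a library far from the other 3, 6 were flagged because the gap to the nearest library, over the range of the group, passed the critical value of Dixon's test, and chance alone flags about 1 group in 20. Hspa1a was at 44.7 CPM in WT LT-HFD replicate 2, against 25.6 to 27.4 CPM in the other 3 (gap over range 0.905). This library also held the highest Dnajb1 and the lowest Hsph1 of WT LT-HFD. Its total of counts (3279332) and its TMM factor (0.875) were the lowest of all libraries. Hspa8 was at 1876 CPM in IRF5-KO LT-HFD replicate 2 (0.869), which also held the highest Hsp90aa1, Hsp90ab1 and Hspd1 of its group. Hsph1 was at 70.4 CPM in WT ST-HFD replicate 1 (0.835). Among the marker sums, fibroblast and preadipocyte markers reached 9506 CPM in WT LT-HFD replicate 4 (0.925) and 1185 CPM in WT ST-HFD replicate 3 (0.854), and macrophage markers reached 8987 CPM in IRF5-KO LT-HFD replicate 4 (0.848).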

How the results depend on the processing

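Of 872 values of the members under alternatives, 813 kept their direction and side of the threshold, 43 changed sign, 8 gained and 8 lost significance. The 8 that lost it are all Hsph1. No member passed the test of genotype or interaction under any alternative. The sign changes concern values that did not pass the test, of which the interaction of Hspb1 (-0.56) and Hspa1a on ST-HFD (0.37) were the farthest from 0. For Hsp90ab1 on LT-HFD the genotype value of 0.00268 became -0.00167 with RLE size factors, -0.000707 without rRNA-like features and -0.000535 with DESeq2. Without single libraries the genotype values on ST-HFD ranged from -0.047 to 0.65 for Hspa1a, -0.030 to 0.052 for Hspa8, -0.20 to 0.010 for Dnajb1, -0.085 to 0.27 for Hsph1, -0.041 to 0.097 for Hsp90aa1, -0.068 to 0.032 for Hsp90ab1 and -0.099 to 0.087 for Hspd1. On LT-HFD they ranged from -0.071 to 0.095 for Hspa8, -0.22 to 0.92 for Hspb1 and -0.042 to 0.058 for Hsp90ab1. The duration value of Dnajb1 in WT ranged from -0.18 (without LT-HFD replicate 2) to 0.17. The interaction ranged from -0.085 to 0.060 for Hspa8, -0.33 to 0.018 for Dnajb1, -0.048 to 0.30 for Hsph1, -0.89 to 0.31 for Hspb1 and -0.041 to 0.071 for Hsp90ab1. The causes were not tested.

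Over all genes, the genotype test on ST-HFD called 1 gene, and 2 with no filter on low counts, DESeq2 or all 16 libraries. On LT-HFD it called 2, and 6 with no filter, 7 with DESeq2 and 0 to 2 without single libraries. With the replicate block no call of a member changed. The counts over all genes were then 2 on ST-HFD, 0 on LT-HFD, 2730 for duration in WT (2928 without the block) and 3618 in IRF5-KO (3787 without it). Only the ST-HFD count rests on libraries taken as pairs. In the duration fits the block ties same-numbered libraries of all 4 groups. No alternative scaling moved the median of all genes by over 0.05 on the log2 scale. Depth limits Hspb1 most, with as few as 5 counts in a library.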

Other observations

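The genes whose group-centred levels over the 16 libraries were most like the mean of the 9 members were Fem1c (r = 0.838), Sik1 (0.818), Tox4 (0.803), Trim25 (0.768), Arc (0.758), Postn (0.751), Chka (0.751) and Fam53c (0.738). For the sum of Hspa1a and Hspa1b, a profile added after the data were seen, they were Pfkfb3 (r = 0.953), Mylip (0.939), H2-Q7 (0.928), Rell1 (0.925), Arc (0.921), Nr4a3 (0.917), Kdm2a (0.911) and Gbp5 (0.897). Arc appears in both sets. Sik1, Arc and Nr4a3 are known as genes induced early after stimulation. These values were picked as the highest among all tested genes and are a description.

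All 20 immediate early genes had a negative value in the interaction of genotype and diet duration, as had 5 of the 9 members and 5923 of the 11560 tested genes, and none passed that test.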
